A study of Mus musculus with 2 samples.

Results

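The 6 miRNA genes embedded in the mouse Hox clusters, Mir10a, Mir10b, Mir196a-1, Mir196a-2, Mir196b and Mir615, were described in myotubes of the C2C12 line. They were chosen by their place inside a Hox cluster and matched by Ensembl identifier to the GENCODE M21 annotation, and are 6 of 2202 miRNA genes counted. C2C12 is a myoblast line that was established from crush-injured thigh muscle of the C3H mouse strain and that fuses into multinucleated myotubes in culture. The series held 1 group, C2C12 cells differentiated for 72 h, with 2 small RNA libraries labelled biological replicates 1 and 2 and made from separate biosamples of the same line. No treatment, time course or undifferentiated control was analysed here, so the genes were compared with each other, with other miRNA genes and between the libraries. Both libraries came from 1 cell line, so p-values between them describe these libraries and not a condition.

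Hox genes encode transcription factors that pattern the body from head to tail. They sit in 4 clusters, HoxA to HoxD, in which genes with low numbers lie at the 3′ end and are used in anterior regions, and genes with high numbers lie at the 5′ end and are used in posterior regions. The Mir10 genes lie next to Hox4 genes, the Mir196 genes lie 5′ of Hox9 genes, and Mir615 lies within Hoxc5. Both Mir10 and Mir196 miRNAs are known repressors of Hox mRNAs, and in mouse miR-196a directs cleavage of Hoxb8 mRNA. A miRNA finds its targets mainly through its seed, bases 2 to 8 from the 5′ end.

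The mature sequences are shown because the 6 genes fall into 3 seed groups, and because the differences between near-identical family members decide which gene a read is counted for. Sequences are from RefSeq on GRCm38.p6, 5′ to 3′, with the seed in capitals, and all 6 genes had an entry.
miR-10a-5p: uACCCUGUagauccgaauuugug
miR-10b-5p: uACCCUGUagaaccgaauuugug
miR-196a-5p: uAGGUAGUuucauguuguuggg
miR-196b-5p: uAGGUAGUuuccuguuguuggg
miR-615-3p: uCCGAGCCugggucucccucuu
miR-615-5p: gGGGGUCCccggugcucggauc
miR-10a-5p and miR-10b-5p shared the seed ACCCUGU and differed by U12A over 23 bases. miR-196a-5p and miR-196b-5p shared the seed AGGUAGU and differed by A12C over 22 bases. Positions are counted from 1 at the 5′ end, with the base of the first-named miRNA first. No other mature mouse miRNA in the RefSeq table carried the seed of either pair. The seeds CCGAGCC of miR-615-3p and GGGGUCC of miR-615-5p were carried by no other entry. The deposited counts are per gene, so reads of the 5′ and 3′ arms of a hairpin were not separated.

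Mir196a-1 and Mir196a-2 produce the same mature 5′ arm. Their hairpins are shown, with the longest exact run they share in capitals.
Mir196a-1: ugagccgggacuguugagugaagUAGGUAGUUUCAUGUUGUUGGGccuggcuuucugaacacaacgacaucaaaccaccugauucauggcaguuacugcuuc
Mir196a-2: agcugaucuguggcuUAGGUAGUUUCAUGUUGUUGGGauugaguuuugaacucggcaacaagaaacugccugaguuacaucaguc
The shared run was 22 bases long and was exactly the mature miR-196a-5p. A read of that arm with no extra base maps to both genes, and the authors' tables keep reads that map to several places outside the gene counts. The counts of these 2 genes are therefore uncertain, and they are no measure of mature miR-196a-5p. The base after the run is c in Mir196a-1 and a in Mir196a-2, so an extra base at that end can decide the gene counted. Whether such bases came from the hairpin was not tested. The 3′ arms of the 2 genes differ at 17 of 22 positions. The longest run shared with any other annotated hairpin was 15 bases for Mir10a and Mir10b (each with the other), 14 for Mir615 and 12 for Mir196b. None of these 4 shared a run of 18 or more bases.

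Coordinates are on mm10 (GRCm38), 1-based, and distances are to the coding span of the nearest Hox gene on each side. Mir196b (ENSMUSG00000065443.1, chr6:52230081-52230165, minus strand) lies in HoxA between Hoxa10, 2344 bases away, and Hoxa9, 3977 bases away, and it overlaps an exon in 2 of the 3 Hoxa9 transcripts that span it. Mir196a-1 (ENSMUSG00000065546.1, chr11:96265164-96265265, plus strand) lies in HoxB, 68938 bases from Hoxb13 and 6277 bases from Hoxb9, outside any other annotated transcript. Mir10a (ENSMUSG00000065519.1, chr11:96317165-96317274, plus strand) also lies in HoxB, 1496 bases from Hoxb4 and 12031 bases from Hoxb5, outside any other annotated transcript. In HoxC, Mir196a-2 (ENSMUSG00000065488.2, chr15:102973350-102973434, plus strand) lies between Hoxc10 and Hoxc9, 2278 and 8219 bases away, within an intron of a long Hoxc5 transcript. Mir615 (ENSMUSG00000076010.1, chr15:103014910-103015001, plus strand) lies in the same cluster in an intron of Hoxc5, inside its coding span. In HoxD, Mir10b (ENSMUSG00000065500.3, chr2:74726070-74726137, plus strand) lies 1142 bases from Hoxd4 within introns of Hoxd4 and Hoxd3 transcripts. The clusters hold 1 further annotated miRNA gene, Gm44463 in HoxD, which had no read in either library.

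**Figure D1:**
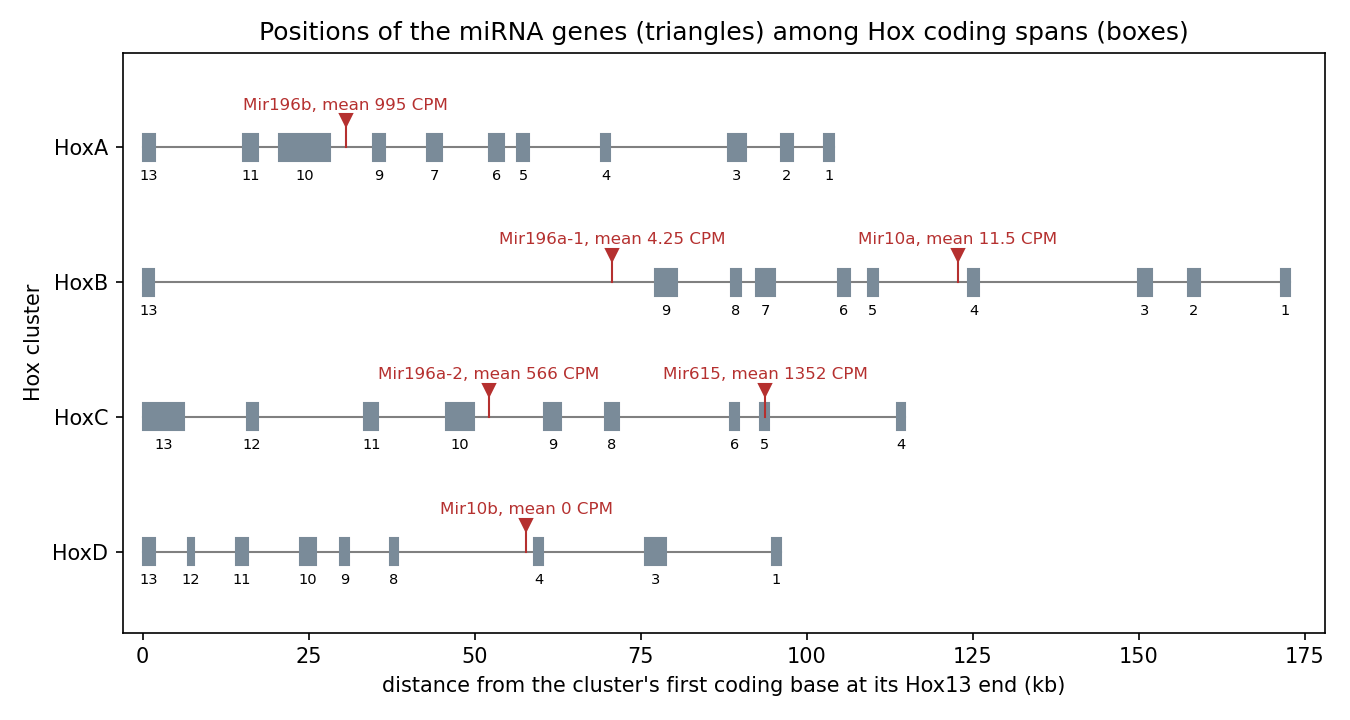
Positions of the miRNA genes (triangles, with mean CPM of 2 libraries) among the coding spans of the Hox genes (boxes, numbered by Hox gene), drawn to scale in kb from the Hox13 end of each cluster. Mir196b (995 CPM), Mir615 (1352 CPM) and Mir196a-2 (566 CPM) lie in HoxA and HoxC, while the genes in HoxB were at 11.5 and 4.25 CPM and Mir10b in HoxD at 0.

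The libraries held 7581366 and 9865298 reads assigned to the sense strand of miRNA genes in replicates 1 and 2, or 49.4% and 53.5% of all reads. Reads that mapped to several places were 22.0% and 17.9% of all reads. Mir206, the defining skeletal muscle miRNA, was at 340841 and 416794 CPM (counts-per-million, relative to miRNA-assigned reads). Of 8 listed muscle genes, 5 reached 2 CPM in both libraries. Means were 12089 CPM for Mir133b, 471 CPM for Mir499 and 378 CPM for Mir208b. By assigned reads, Mir1a-1, Mir1a-2, Mir133a-1 and Mir133a-2 were low, at means of 2.94, 3.02, 2.01 and 1.03 CPM. Mir1a-1 and Mir1a-2 are copies, as are Mir133a-1 and Mir133a-2, and reads that map to several places are outside the counts. These values are therefore no measure of the mature miRNAs of these genes. Lists of genes that mark other cell types summed to 105 and 183 CPM for blood, 219 and 44.5 CPM for endothelium, 148 and 168 CPM for neurons, and 8.71 and 5.47 CPM for epithelium. The liver and embryonic stem cell lists each stayed at or below 1.06 CPM. The 3 Mir124a genes, Mir200a and Mir429 had no read, although the Mir124a genes are copies whose reads may map to several places.

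Of the 6 Hox-cluster genes, 5 reached 2 CPM in both libraries, against 12.4% of all 2202 miRNA genes. Mir10b was the exception. The mature miRNAs annotated for these genes are 22 or 23 bases long and a read covers 1 of them, so CPM were compared between genes without division by length. CPM also depend on how well each sequence is captured in the library, which was not tested. Intervals are 95% exact Clopper-Pearson intervals and, like the limits given for a count of 0, cover counting error of reads only.

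The Mir196 genes, the posterior family, are described first. Mir196b in HoxA had 12849 reads in replicate 1 and 2905 in replicate 2, or 1695 CPM (interval 1666 to 1724) and 294 CPM (284 to 305). Its mean was 995 ± 990 CPM (SD, n = 2), so the spread was as large as the mean. By assigned reads it was high in replicate 1, ranking 48th of all miRNA genes and first among the 6. In replicate 2 it ranked 94th.

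Mir196a-2 in HoxC had 6151 and 3157 reads, or 811 CPM (791 to 832) in replicate 1 and 320 CPM (309 to 331) in replicate 2, with a mean of 566 ± 347 CPM (SD, n = 2). Its rank was 77 in replicate 1 and 93 in replicate 2. Mir196a-1 in HoxB had 36 and 37 reads, or 4.75 CPM (3.33 to 6.57) and 3.75 CPM (2.64 to 5.17), a mean of 4.25 ± 0.706 CPM (SD, n = 2). It was low in both libraries and stood just above the limit for detection. These values leave out any read of the shared 22-base arm that mapped to both genes, so they compare the distinguishable reads of the 2 hairpins.

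By those reads, the HoxC copy exceeded the HoxB copy 171-fold in replicate 1 and 85.3-fold in replicate 2, or by 6.90 ± 0.71 on the log2 scale (SD, n = 2; 0.5 reads added). The libraries of the 2 genes did not overlap. These folds compare assigned reads and are no measure of the output of each copy. Mir196b and Mir196a-2 kept no common order. The log2 ratio of Mir196b over Mir196a-2 was 1.06 in replicate 1 and -0.12 in replicate 2, a mean of 0.47 ± 0.84 (SD, n = 2). Since reads shared by the Mir196a copies are left out, Mir196b cannot be ranked against mature miR-196a-5p. With 2 libraries a two-sided exact paired permutation test cannot give a p below 0.5, and no ratio between genes was tested.

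The Mir10 genes, the anterior family, were scarce. Mir10a in HoxB had 115 and 77 reads, or 15.2 CPM (12.5 to 18.2) in replicate 1 and 7.81 CPM (6.16 to 9.76) in replicate 2, a mean of 11.5 ± 5.21 CPM (SD, n = 2). It ranked 194th and 219th. Mir10b in HoxD had 0 reads in both libraries, a count that allows levels up to 0.396 and 0.304 CPM in replicates 1 and 2, at 3 counts per library. No read in either library was seen for 67.8% of all 2202 miRNA genes.

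Against that limit Mir10a was at least 38.3-fold higher than Mir10b in replicate 1 and at least 25.7-fold higher in replicate 2. The mature arms of the pair differ at U12A and the 2 hairpins share no run over 15 bases, unlike the Mir196a copies. Only exact runs were compared, and the mismatches that the aligner allowed are not known. Reads of the pair may therefore have been counted for the other gene or left out. Within HoxB, Mir10a exceeded Mir196a-1 by 1.35 ± 0.43 on the log2 scale (SD, n = 2), with the limit on Mir196a-1 given above.

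Mir615, in the intron of Hoxc5, had 8647 and 15432 reads, or 1141 CPM (1117 to 1165) in replicate 1 and 1564 CPM (1540 to 1589) in replicate 2. Its mean of 1352 ± 300 CPM (SD, n = 2) was the highest of the 6 genes by assigned reads, and it ranked 60th and 43rd. By CPM it was higher in replicate 2, while the other 4 detected genes were higher in replicate 1. Mir196a-2, its neighbour in HoxC, was below it in both libraries by distinguishable reads, with a log2 ratio of -0.49 in replicate 1 and -2.29 in replicate 2 (mean -1.39 ± 1.27, SD, n = 2).

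By assigned reads, the order of the means was Mir615, Mir196b, Mir196a-2, Mir10a, Mir196a-1 and Mir10b. Reads that mapped to both Mir196a copies are left out, and the places of those genes with such reads included are not known. The first 3 were not resolved from each other as neighbours: Mir196b was above Mir615 in replicate 1 and below it in replicate 2, and Mir196b and Mir196a-2 changed places too. The step below them was clear, since the lowest library of Mir196a-2 (320 CPM) exceeded the highest of Mir10a (15.2 CPM). By distinguishable reads, Mir10a (7.81 CPM or more) lay above Mir196a-1 (4.75 CPM or less) in both libraries.

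**Figure D2:**
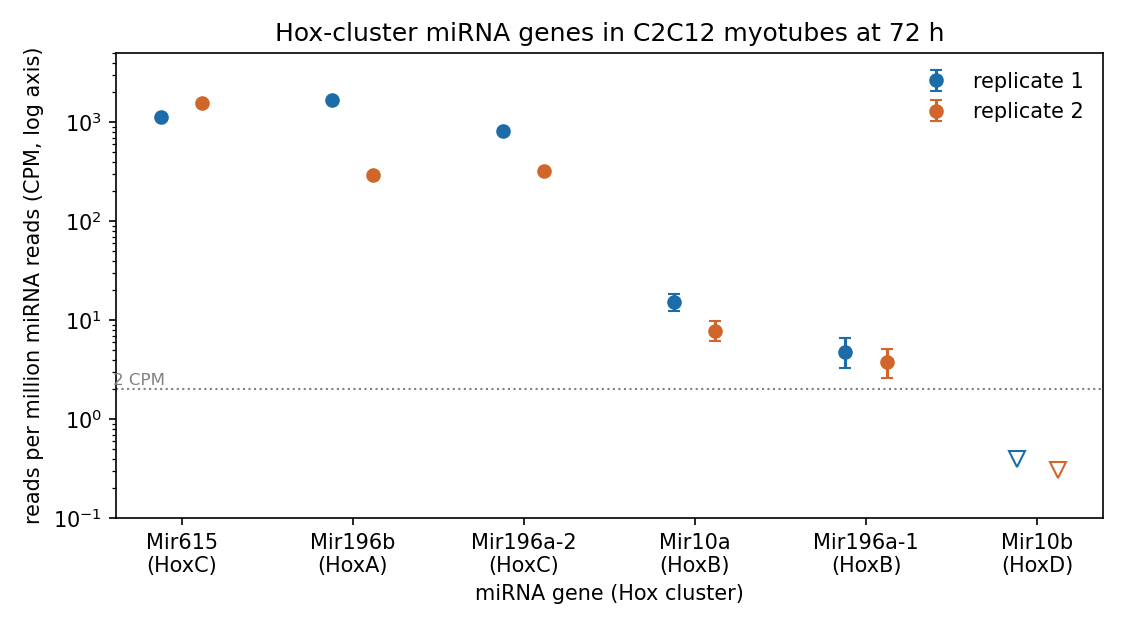
CPM on a log axis for each Hox-cluster miRNA gene in replicates 1 (blue) and 2 (orange), ordered by mean, with 95% exact intervals; open triangles mark the limit that 0 reads allow and the dotted line marks 2 CPM. The 3 leading genes lie between 294 and 1695 CPM, Mir10a and Mir196a-1 between 3.75 and 15.2 CPM, and Mir10b had no read.

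Added up by cluster, HoxC and HoxA gave nearly all assigned reads of the 6 genes, 27798 in replicate 1 and 21608 in replicate 2. HoxC gave 53.2% (52.6% to 53.8%) in replicate 1 and 86.0% (85.6% to 86.5%) in replicate 2. HoxA gave 46.2% (45.6% to 46.8%) and 13.4% (13.0% to 13.9%). HoxB gave 0.543% (0.460% to 0.637%) and 0.528% (0.435% to 0.633%), and HoxD none. These shares leave out miR-196a-5p reads that mapped to both Mir196a-1 in HoxB and Mir196a-2 in HoxC, whose number is not known, and the intervals do not cover them. In CPM the HoxC genes together were steady, at 1952 in replicate 1 and 1884 in replicate 2, while Mir615 was higher and Mir196a-2 lower in replicate 2.

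Added up by position, the genes between Hox10 or Hox13 and Hox9 (the Mir196 family) gave 68.5% (67.9% to 69.0%) of these reads in replicate 1 and 28.2% (27.6% to 28.8%) in replicate 2. Mir615, at the Hox5 position, gave 31.1% (30.6% to 31.7%) and 71.4% (70.8% to 72.0%). The Mir10 family, beside Hox4, gave 0.414% (0.342% to 0.496%) and 0.356% (0.281% to 0.445%). The summed Mir196 genes exceeded the summed Mir10 genes 166-fold and 79.2-fold, or by 6.83 ± 0.75 on the log2 scale (SD, n = 2). This ratio leaves out Mir196a reads that mapped to both copies. Mir196a-1, at the Hox9 position of HoxB, was below Mir10a by distinguishable reads, and its order with the shared reads included is not known. Hox mRNAs were not measured in these small RNA libraries and are not analysed here, and no axial identity was assigned to the line from these levels.

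Between the libraries, 4 of the 5 detected genes differed by more than counting error (exact two-sided binomial test with TMM library sizes, Benjamini-Hochberg adjusted over 415 genes). Of all genes tested, 55.7% were so called, so the count is read against that share. The share called depends on read depth. With a minimum of 100 reads, 205 of 240 genes were called, and 4 of the 4 Hox-cluster genes tested. The count is therefore not read as a trait of these genes. Mir196b was 5.63-fold higher in replicate 1, a log2 difference of 2.49 with a counting interval of 2.44 to 2.55. Mir196a-2 was 2.48-fold higher in replicate 1, a log2 difference of 1.31 (1.25 to 1.37). The adjusted p-values of both were below the range of the software.

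Mir10a was 1.90-fold higher in replicate 1 (log2 difference 0.93, interval 0.50 to 1.36, adjusted p = 2.79e-05 by the exact binomial test). Mir615 was 1.40-fold higher in replicate 2 (log2 difference -0.49, interval -0.52 to -0.45, adjusted p = 8.1e-142 by the exact binomial test). Mir196a-1 did not pass, with a log2 difference of 0.31, an interval of -0.39 to 1.01 and an adjusted p of 0.518 by the exact binomial test. Thus 3 genes were higher in replicate 1, where 30.4% of all genes tested were called, and 1 was higher in replicate 2, where 25.3% were.

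By size of difference, 2 of the 5 detected genes differed 2-fold or more, against 21.5% of the 274 detected miRNA genes. Both were higher in replicate 1, a direction in which 16.4% of detected genes differed that much. Mir196b had the ninth-largest difference of the 274 and Mir196a-2 ranked 34th. The median log2 difference of the 5 genes was 0.93, against 0.02 over all genes tested. The biological coefficient of variation between the libraries was 0.426 over 274 genes (edgeR). The endothelial marker Mir126a moved the same way as Mir196b, at 217 and 42.9 CPM in replicates 1 and 2. The other endothelial gene, Mir126b, was at 1.85 and 1.62 CPM. Markers of blood, epithelium and neurons were called in both directions. Mir200c, Mir144 and Mir451a were higher in replicate 1 (log2 differences 2.85, 2.17 and 1.66). Mir142, Mir150, Mir128-1 and Mir128-2 were higher in replicate 2 (-1.03, -2.82, -0.17 and -0.28). Mir200c, Mir144 and Mir150 had at most 26 reads in a library. Of the 8 muscle marker genes, 3 were called higher in replicate 1 (Mir133b, Mir499 and Mir1a-2, log2 differences 0.33, 0.54 and 1.16) and 3 higher in replicate 2 (Mir206, Mir208b and Mir133a-1, -0.32, -0.96 and -1.24). The part of these in the Mir196b difference was not tested.

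**Figure D3:**
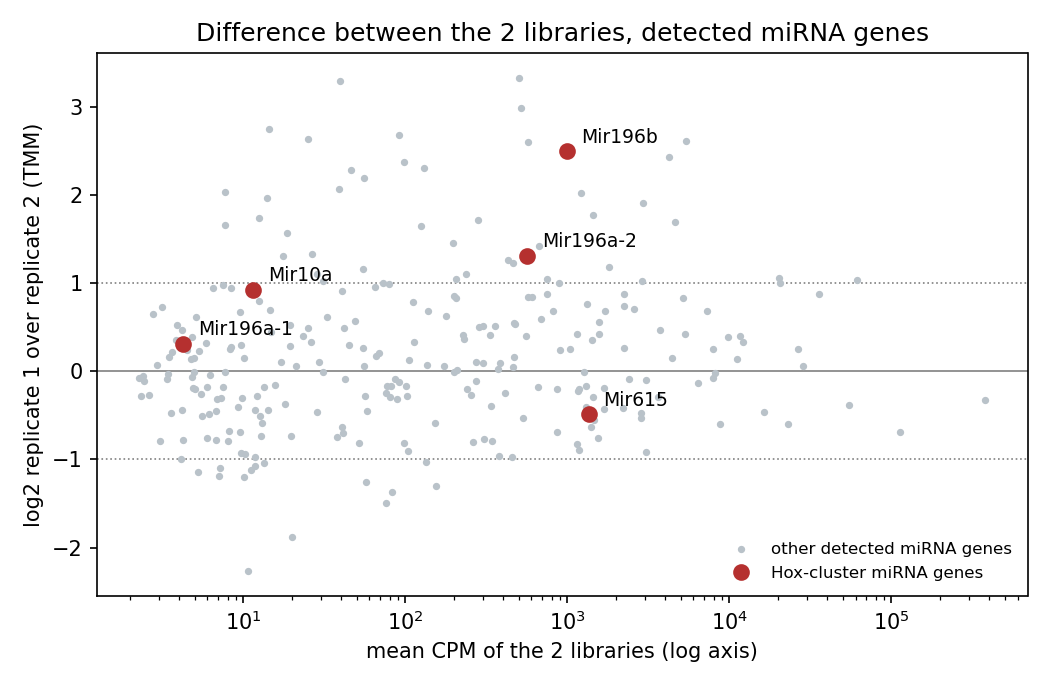
Log2 difference between replicate 1 and replicate 2 (TMM) against mean CPM (log axis) for the 274 miRNA genes detected in both libraries; red points are the Hox-cluster genes and dotted lines mark a 2-fold difference. Mir196b (2.49) and Mir196a-2 (1.31) lie above the upper line, Mir10a (0.93) and Mir196a-1 (0.31) between 0 and that line, and Mir615 (-0.49) below 0.

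For each detected gene, the 3 other miRNA genes nearest in level were found by distance in log2(CPM + 1) over the 2 libraries. Mir615 lay closest to Mir125a (1137 and 1477 CPM), Mir744 (1105 and 1678 CPM) and Mir181c (1192 and 1710 CPM), at distances of 0.0827 to 0.144. Mir196b had no such close match: the nearest were Mir34a (1961 and 473 CPM), Mir96 (971 and 356 CPM) and Mir872 (1016 and 482 CPM), at distances of 0.713 to 1.02. Mir196a-2 lay closest to Mir96, Mir708 (738 and 403 CPM) and Mir155 (651 and 271 CPM), at 0.301 to 0.397.

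Among the scarce genes, Mir10a lay nearest to Mir135b (15.96 and 9.02 CPM), Mir190b (11.9 and 7.30 CPM) and Mir3099 (10.8 and 8.62 CPM). Mir196a-1 lay nearest to Mir3058 (4.88 and 4.05 CPM), Mir7018 (4.88 and 3.45 CPM) and Mir205 (4.35 and 3.35 CPM), an epithelial miRNA. Likeness over 2 libraries is a description of level and says nothing of shared control.

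Both families have relatives outside the Hox clusters. Mir99 and Mir100 genes, whose miRNAs repeat most of the Mir10 sequence with a changed seed, and Mir125 genes belong to the wider Mir10 family. Let-7 miRNAs, which promote differentiation in many tissues, carry the core AGGUAG of the Mir196 seed 1 base further from the 5′ end, at base 3 rather than base 2. The lines show 1 relative of each kind, seeds in capitals.
miR-100-5p: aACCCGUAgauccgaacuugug
miR-125a-5p: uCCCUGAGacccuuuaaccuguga
let-7i-5p: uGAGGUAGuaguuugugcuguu
The Mir10 genes together had 115 reads in replicate 1 and 77 in replicate 2, against 394359 and 483441 for the 6 relatives, which were 3429-fold and 6278-fold higher. All 6 relatives reached 2 CPM in both libraries, from 301 CPM on average for Mir125b-2 to 28592 ± 1263 CPM for Mir99a (SD, n = 2).

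The Mir196 genes together had 19036 and 6099 reads, against 431533 and 445945 for 12 let-7 genes, which were 22.7-fold and 73.1-fold higher. Mirlet7b, at 18538 and 27399 CPM, and Mirlet7i, at 27586 and 13491 CPM, led that list. Several let-7 genes, Mir125b-1 and Mir125b-2 and the Mir196a genes have identical mature copies, so reads that mapped to several places are missing on both sides of these ratios. Of the let-7 genes 8 of 12 were higher in replicate 1 and 1 was higher in replicate 2 (exact binomial test, adjusted over all genes tested), and of the Mir99, Mir100 and Mir125 genes 4 of 6 were higher in replicate 1 and 2 in replicate 2. Over all genes tested, 30.4% were called higher in replicate 1 and 25.3% in replicate 2. The called differences of the 6 relatives were small, from -0.41 for Mir125a to 0.25 for Mir125b-1 on the log2 scale. Mir98, a let-7 gene, was at 989 and 160 CPM, a log2 difference of 2.60 beside 2.49 for Mir196b.

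**Figure D4:**
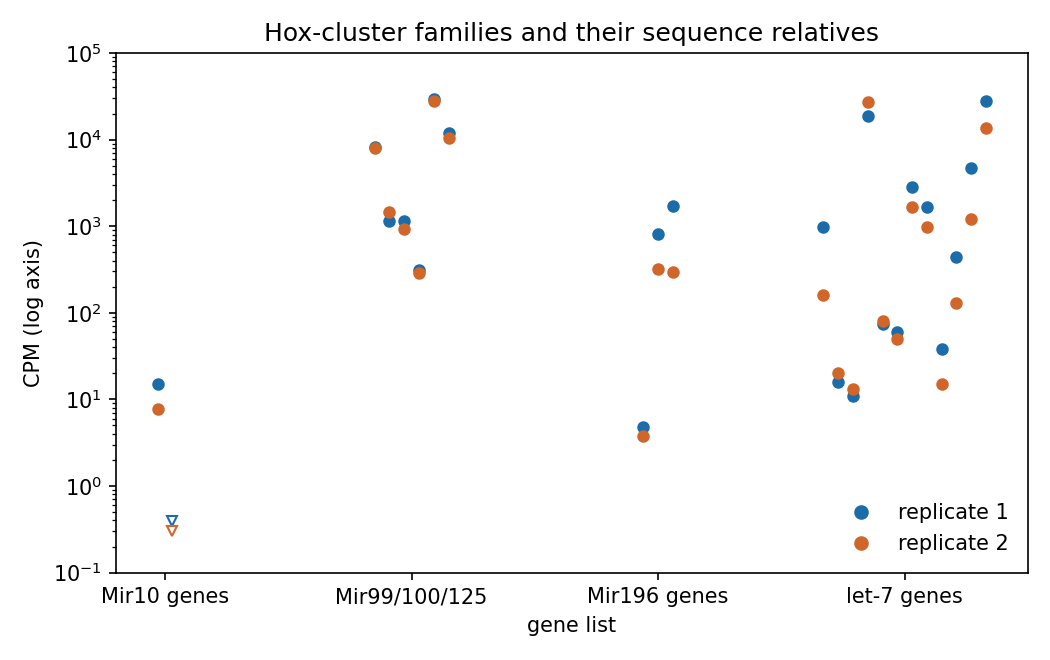
CPM on a log axis of each gene in the Mir10 and Mir196 families and in their relatives outside the Hox clusters, for replicates 1 (blue) and 2 (orange); open triangles mark the limit that 0 reads allow for Mir10b. The Mir10 genes reach 15.2 CPM at most and the Mir99, Mir100 and Mir125 genes start at 288 CPM, while Mir196b and Mir196a-2 (294 to 1695 CPM) lie within the range of the let-7 genes (11.1 to 27586 CPM) and Mir196a-1 lies below it.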

How the data were processed

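MicroRNAs were sequenced in 2 libraries of 1 group, C2C12 myotubes at 72 h. The deposited values are raw counts of reads for each miRNA gene, which the authors made on mm10 with annotation M21, per the text file deposited beside them. The aligner, counter and filters were not given in the sources used here. A table gives 1 column that ignores strand, a column for the gene's own strand and a column for the opposite strand. The own-strand column was used, and the opposite-strand column was 0 for all 6 genes. Summary lines for unmapped (22.7% and 23.1% of reads), multimapping (22.0% and 17.9%) and no-feature reads (5.88% and 5.57%) stayed out of library sizes and tests because they name no gene.

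CPM used the own-strand reads of miRNA genes as the total. Detection meant at least 2 CPM in each library. Ratios had 0.5 reads added. Libraries were compared with an exact two-sided binomial test on TMM effective library sizes from edgeR 4.0.16, adjusted over all genes with at least 10 reads summed over the libraries, at a threshold of 0.05. The quasi-likelihood test needs a contrast and was not used. Alternatives were strand-ignored counts, CPM over all reads, leaving out each library, detection at 1, 5 or 10 CPM, other pseudocounts (1 and 0.1 reads), DESeq2 1.42.0 size factors or library totals, and minimums of 1 or 100 reads. The test was tested on simulated data drawn with counting error only. That simulation does not cover the spread between biological replicates. Software was Python 3.11.15, numpy 2.4.6, scipy 1.17.1, pandas 2.3.3 and R 4.3.3.

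Named were the 6 genes, other miRNA genes in Hox clusters, the 3 genes nearest in level to each detected gene, fixed lists of sequence relatives and cell type markers. The embryonic stem cell gene Mir292a had no match. Mir126a and Mir98 were singled out after their values were seen. The genes and lists were chosen with earlier results of these data known. Hairpins are from GENCODE M21 and mature sequences from RefSeq on GRCm38.p6.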

Additional observations from a re-analysis of the deposited data

How the results depend on the processing

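Of 95 recomputed values, 88 kept their direction and, for tests, their call, or moved by no more than the SD between the libraries. That SD is wide for Mir196b and Mir196a-2. With 2 libraries, leaving out 1 cannot move a mean by more than the SD, so those means could fail only by a change of sign. Strand-ignored counts could not change the ratios, because these genes had no opposite-strand reads. The 88 is therefore no measure of how robust the results are. With all reads as the denominator the mean was 5.83 CPM for Mir10a, 2.18 CPM for Mir196a-1, 286 CPM for Mir196a-2, 497 CPM for Mir196b and 699.9 CPM for Mir615, because that total is larger. Detection at 10 CPM left 3 of the 6 genes. The log2 ratio of Mir10a over Mir10b was 7.56 with 0.5 reads added, 6.57 with 1 read and 9.88 with 0.1 reads, because Mir10b had no read. The level of Mir10a over the limit on Mir10b is given above in its place. Leaving out 1 library, the log2 ratio of Mir196b over Mir196a-2 ranged from -0.12 without replicate 1 to 1.06 without replicate 2, so its sign rests on replicate 1. Without replicate 1 the mean of Mir196b was 294 CPM and without replicate 2 it was 1695 CPM; for Mir196a-2 these were 320 and 811 CPM. Each library test kept its call and direction under DESeq2 size factors, library totals, strand-ignored counts and both other minimums where the gene was tested. A test between libraries could not be made with a library left out. No paired analysis was possible because the series has 1 group. Depth limits Mir10b, Mir10a and Mir196a-1, which had at most 115 reads in a library.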
